A study of Mus musculus with 9 samples.

Results

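The genes of the repressors Gfi1 and Gfi1b and of 4 proteins of the CoREST complex, Kdm1a, Rcor1, Rcor2 and Rcor3, were examined for Hdac1 and Hdac2 occupancy in mouse haemogenic endothelium. These 6 genes were chosen by name from 21887 protein-coding genes and by no rule on their peaks, though earlier results of these data were known. The data were ChIP-seq peak lists from 3 embryonic stem (ES) cell lines, Bry, Hd1_loxlox and Hd2lox by their labels and all of strain C57BL/6, which had been differentiated in culture into haemogenic endothelium, the endothelial cells from which blood arises. Each line gave 1 list with an Hdac1 antibody (Diagenode) and 1 with an Hdac2 antibody (abcam), so each antibody had n = 3 lines. No treatment is recorded. Passage numbers were 16 to 19 for Bry and 25 to 30 for Hd1_loxlox and Hd2lox. The labels do not state which alleles the names Hd1_loxlox and Hd2lox stand for, whether any allele had been recombined, or whether a line is a single clone. Peak positions do not measure expression, so the labelled cell type could not be checked against its markers.

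Gfi1 and Gfi1b are zinc finger proteins that bind DNA and silence genes. A short stretch at their N terminus, the SNAG domain, binds the histone demethylase Kdm1a (also called Lsd1), which works in the CoREST complex together with a scaffold protein (Rcor1, Rcor2 or Rcor3) and with Hdac1 or Hdac2. In haemogenic endothelium Gfi1 and Gfi1b are known for switching off the endothelial programme as the cells turn into blood, and they are also known to repress their own genes. The lists show where Hdac1 and Hdac2 lay on the genes that encode that complex and the factors that bring it to DNA. The antibodies were against Hdac1 and Hdac2 only, so a peak does not tell whether CoREST, Gfi1 or Gfi1b was present there.

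The start regions of 4 genes are shown because they span the range from a gene that was in 1 list to genes that were in 5. Each is the 250 bases before the outer annotated start in the RefSeq table of GRCm38.p6 (the same assembly as mm10), read on the strand of the gene, with capitals for the letters AATC, the core that Gfi1 and Gfi1b recognise, or its reverse complement GATT. The windows are chr2:28621983-28622232 (minus strand) for Gfi1b, chr5:107725806-107726055 (minus strand) for Gfi1, chr19:7267144-7267393 (plus strand) for Rcor2 and chr1:192138041-192138290 (minus strand) for Rcor3.
Gfi1b: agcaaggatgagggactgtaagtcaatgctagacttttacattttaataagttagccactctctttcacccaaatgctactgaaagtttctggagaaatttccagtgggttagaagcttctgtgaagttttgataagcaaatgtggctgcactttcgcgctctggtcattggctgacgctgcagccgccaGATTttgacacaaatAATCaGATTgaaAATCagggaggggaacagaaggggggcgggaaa
Gfi1: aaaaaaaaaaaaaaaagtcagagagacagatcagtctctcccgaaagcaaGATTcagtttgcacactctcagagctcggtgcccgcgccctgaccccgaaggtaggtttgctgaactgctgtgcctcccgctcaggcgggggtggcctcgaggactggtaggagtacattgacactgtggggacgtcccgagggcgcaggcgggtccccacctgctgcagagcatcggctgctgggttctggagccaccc
Rcor2: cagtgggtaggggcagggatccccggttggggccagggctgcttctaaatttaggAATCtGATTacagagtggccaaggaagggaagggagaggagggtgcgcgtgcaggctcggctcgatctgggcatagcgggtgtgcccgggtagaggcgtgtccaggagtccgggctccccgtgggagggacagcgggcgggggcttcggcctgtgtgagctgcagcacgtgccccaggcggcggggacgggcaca
Rcor3: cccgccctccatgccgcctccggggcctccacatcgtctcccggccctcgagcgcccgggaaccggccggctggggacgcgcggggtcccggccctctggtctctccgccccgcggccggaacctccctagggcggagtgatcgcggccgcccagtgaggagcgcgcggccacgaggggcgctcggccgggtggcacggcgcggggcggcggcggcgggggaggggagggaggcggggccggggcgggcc

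The Gfi1b window held 4 matches to AATC or GATT, all between 60 and 30 bases before the start. Of 21255 such windows of protein-coding genes, 67.1% held at least 1 match and 6.71% held 4 or more. These shares are over windows of every GC content, and no set matched to the low GC of the Gfi1b window was compared. The Rcor2 window held 2 matches, the outer Gfi1 window and the Kdm1a window 1 each, and the Rcor1 and Rcor3 windows 0. Motifs of other blood and endothelial factors were also searched. The RUNX core TGTGGT, searched on both strands and present in 12.4% of all windows, was in 0 of the windows of these genes. The GATA core GATAA on both strands, present in 20.5% of windows, was in that of Gfi1b alone, where it did not overlap the AATC matches. The ETS core CCGGAA on both strands, present in 15% of windows, was in that of Rcor3 alone. These are matches of letters and not evidence of binding.

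The windows differed in CpG content. The Gfi1b window had 5 CpG dinucleotides and 44.4% GC, the inner Gfi1 window 9 and 57.6%, and the outer Gfi1 window 13 and 59.2%. Rcor2 had 17 and 67.6%, Kdm1a 21 and 59.2%, Rcor1 25 and 70.4%, and Rcor3 39 and 82.8%. The median of all windows was 10 CpG and 55.6% GC, so that of Gfi1b was below both medians.

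The lists held between 5161 and 9279 peaks each and gave no heights or counts, so read depth is unknown and the absence of a peak can reflect a lack of reads. The Hdac2 list of Hd1_loxlox stood apart from the other lists. It had a peak at an end of 2.71% of protein-coding genes, against 34.4% for Hdac2 in Bry and 13.5% in Hd2lox. The Hdac1 shares were 31.9% for Bry, 31.7% for Hd1_loxlox and 24.3% for Hd2lox. The counts of genes with Hdac2 and the comparisons of covered length are therefore also given without it.

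Hdac1 lay at the ends of all 4 CoREST genes in every line, at Gfi1 in 2 lines and at Gfi1b in none. A gene end means 1000 bp on either side of an annotated end of the gene. By this measure 5 of the 6 genes had Hdac1 in at least 2 of 3 lines, where 30.2% of all protein-coding genes did, and 4 had it in all 3 lines, where 14.6% did. Hdac2 met the same rule of at least 2 lines at Rcor2 and Rcor3, 2 of the 6 genes, against 10.6% of all protein-coding genes. By list, the genes with an end peak numbered 5 (Bry), 5 (Hd1_loxlox) and 4 (Hd2lox) for Hdac1, and 5, 0 and 3 for Hdac2 in the same order. Without the Hd1_loxlox Hdac2 list, both remaining Hdac2 lists held the same 2 genes, Rcor2 and Rcor3. Without Bry or without Hd2lox the number was 0, since the Hd1_loxlox list, with 0 end peaks at these genes, was then required. No end peak lay at the stop of a gene. All 22 lay at the start.

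**Figure D1:**
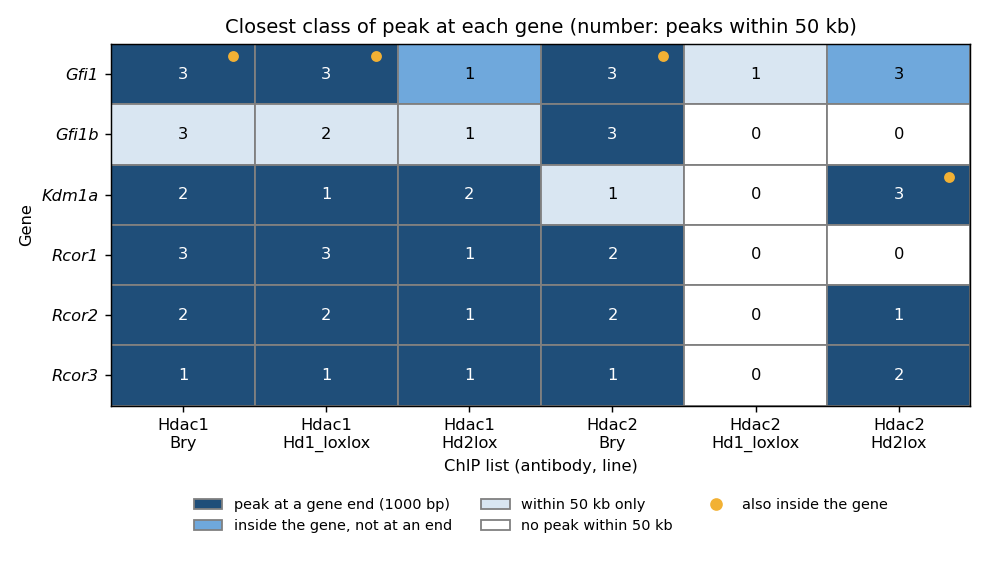
Hdac1 and Hdac2 peaks at the 6 genes (rows) in each of the 6 lists (columns). The colour gives the class of peak nearest to the gene, and the number is the count of peaks within 50 kb of the gene. The Hdac2 list of Hd1_loxlox has 1 peak in its whole column, and Gfi1b has an end peak only in the Hdac2 list of Bry.

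Gfi1 (chromosome 5, 107716655-107725805, minus strand) carried its most frequent peak inside the gene and not at its start. The interior site lay between 3.4 and 4.9 kb downstream of the outer annotated start and was in 5 of 6 lists, all but Hdac2 of Hd1_loxlox. The Hdac1 peaks there were 107721126-107722315 (Bry), 107721093-107722355 (Hd1_loxlox) and 107721048-107722294 (Hd2lox). Its Hdac2 peaks were 107720891-107722164 in Bry and 107721191-107722051 in Hd2lox. The 5 peaks shared 861 bp, the whole of the Hd2lox Hdac2 peak, and their widths ran from 861 to 1274 bp. An interior peak is one that overlaps a gene but touches neither end window, and the share of protein-coding genes with one ranged from 5.01% to 10.6% by list. The combination found at Gfi1, interior peaks in all 3 Hdac1 lists and in at least 2 Hdac2 lists, occurred at 1.45% of protein-coding genes, and the rule does not require those peaks to lie at one place.

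At the start of Gfi1 the lines differed. Peaks covered the outer start in Bry for Hdac1 (107725085-107726706) and Hdac2 (107722981-107726570) and in Hd1_loxlox for Hdac1 (107724800-107726637), and neither Hd2lox list had one. The Bry Hdac2 peak was 3590 bp wide, percentile 99.4 of the widths in its list, and it spanned both annotated starts of Gfi1, which lie 1.5 kb apart. In Hd1_loxlox a separate Hdac1 peak (107723267-107724652) covered the inner start. The Bry Hdac1 peak covered the outer start but not the inner one.

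Away from the gene, Gfi1 had sites on both sides. An upstream site between 32.9 and 34.1 kb before the start, within the neighbouring gene Evi5, was in both Bry lists (Hdac1 107758827-107759898, Hdac2 107758658-107759655) and in no list of the other lines. Evi5 is known to hold regulatory elements of Gfi1 in blood progenitors, and whether this peak is one of them was not tested. A downstream site between 42.8 and 44.4 kb after the start was in the Hdac2 lists of Hd1_loxlox (107681399-107682477) and Hd2lox (107682216-107682981), where the peaks shared 262 bp. It was the only peak of the Hd1_loxlox Hdac2 list within 50 kb of any of the 6 genes. A further Hdac2 peak of Hd2lox lay at 107670187-107671168.

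Gfi1b (chromosome 2, 28609450-28621982, minus strand) had no Hdac1 peak at its ends or inside it in any line. Its start was covered in the Hdac2 list of Bry (28621513-28623537, 2025 bp). An end peak in that list and in no other was found at 3% of protein-coding genes. The same peak lay at an end of Gm52548, a long non-coding RNA gene that overlaps the start of Gfi1b.

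Wide peaks lay beyond the stop of Gfi1b. Between 21.4 and 24.3 kb downstream of its start, at the end of no annotated gene, the Bry lists had an Hdac1 peak of 2535 bp (28597790-28600324) and an Hdac2 peak of 2959 bp (28597662-28600620). They ranked at percentiles 94.9 and 98.3 of width in their lists, and the Bry Hdac2 peak contained the whole Hdac1 peak. Hdac1 in Hd1_loxlox had a peak of 1658 bp there (28598675-28600332), and 1650 bp were common to the 3 lists. The other peaks near Gfi1b lay at starts of neighbours. All 3 Hdac1 lists and the Bry Hdac2 list had a peak at the start of Tsc1, the gene of a tuberous sclerosis complex subunit, and the Bry Hdac1 list had one at the start of Gtf3c5, which encodes a subunit of an RNA polymerase III factor. Both other Hdac2 lists had no peak within 50 kb of Gfi1b.

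**Figure D2:**
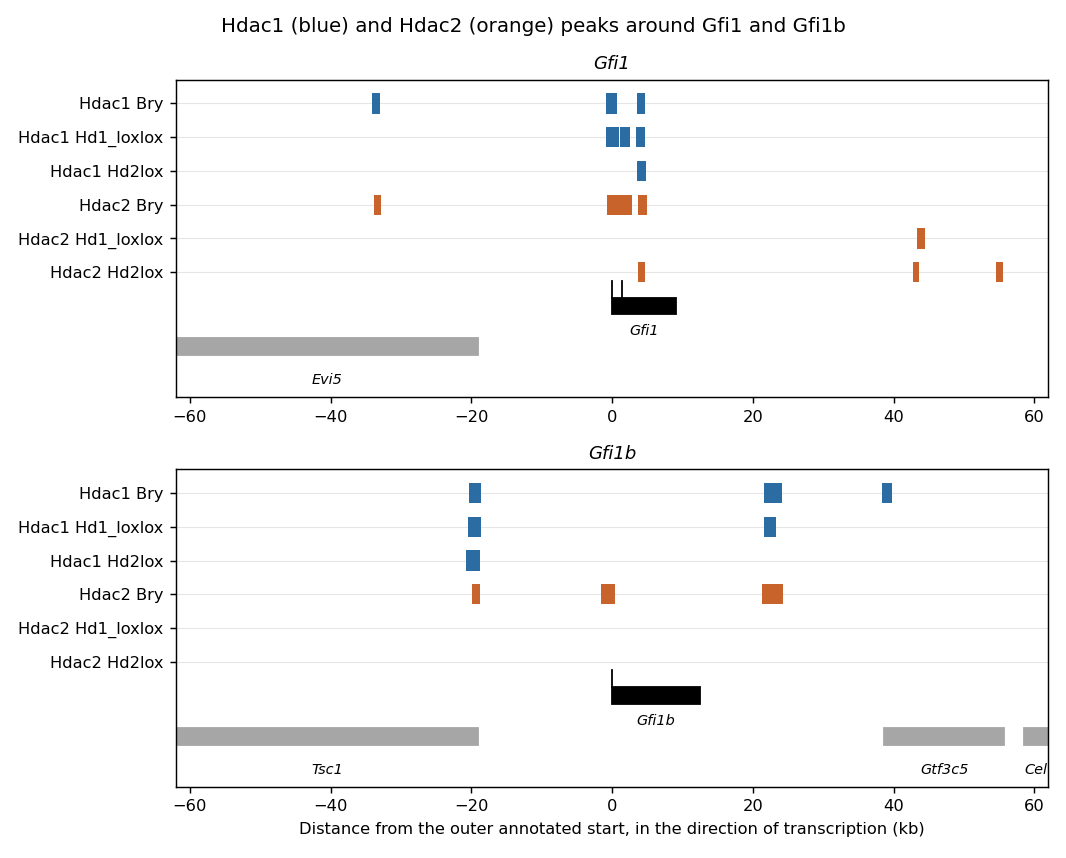
Peaks around Gfi1 (top) and Gfi1b (bottom) by list, with distance from the outer annotated start in kb on the horizontal axis and positive values in the direction of transcription. Black boxes are the genes, with a tick at each annotated start, and grey boxes are neighbouring protein-coding genes. The interior Gfi1 site is seen in 5 lists, and the wide site downstream of Gfi1b in 3.

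Kdm1a (chromosome 4, 136550533-136602787, minus strand), the demethylase gene, had Hdac1 at its start in every line. Its Hdac1 peaks were 136601920-136603168 (Bry), 136601341-136603116 (Hd1_loxlox) and 136601967-136603083 (Hd2lox). Its Hdac2 pattern was the reverse of that at Rcor1, with a start peak in Hd2lox (136601975-136602979) but not in Bry. The combination of lists at Kdm1a was shared by 125 other protein-coding genes (0.571%), while that of Rcor1 was shared by 1363 (6.23%). The Hd2lox Hdac2 peak was 1005 bp wide and lay wholly inside the Hd2lox Hdac1 peak. Hd2lox also had an interior Hdac2 peak at 136591641-136592498, the only interior peak at any of the 4 CoREST genes. Both Hd2lox lists had a peak at the stop of Lactbl1, and both Bry lists had one within Ephb2, a receptor gene, at the edge of the 50 kb window.

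Rcor1 (chromosome 12, 111039367-111115902, plus strand) encodes the scaffold that joins Kdm1a to the deacetylases. Hdac1 covered its start at 111037847-111039821 (Bry), 111038416-111040570 (Hd1_loxlox) and 111039208-111040227 (Hd2lox). Hdac2 did so at 111037897-111040068 (Bry). The Hd2lox peak was the narrowest, 1020 bp against 1975 bp in Bry and 2155 bp in Hd1_loxlox. Away from the start, a site between 46.1 and 47.8 kb upstream was in both Bry lists and in Hd1_loxlox Hdac1, and a site at the start of Traf3, a signalling adaptor gene, was in the Hdac1 lists of Bry and Hd1_loxlox. Hd2lox had neither in either list.

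Rcor2 (chromosome 19, 7267394-7275225, plus strand), a second scaffold gene, was in 5 lists, with peaks at the start and just downstream of it. Hdac1 lay at 7267758-7270180 (Bry), 7266971-7269827 (Hd1_loxlox) and 7267780-7269485 (Hd2lox), and Hdac2 at 7266936-7269466 (Bry) and 7268047-7269028 (Hd2lox). The Hd1_loxlox Hdac1 and Bry Hdac2 peaks covered the annotated start, and the other 3 began between 0.4 and 0.7 kb downstream of it. With windows of 500 bp the Hd2lox Hdac2 peak was no longer counted, and Hdac2 in at least 2 lines was left at 1 of the 6 genes. The Naa40 start, upstream of Rcor2, had a peak in both Bry lists and in Hd1_loxlox Hdac1.

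Rcor3 (chromosome 1, 192098546-192138074, minus strand), the third scaffold gene, was also in 5 lists. Hdac1 covered its start at 192136500-192138776 (Bry), 192137062-192138833 (Hd1_loxlox) and 192136143-192138760 (Hd2lox). The Hdac2 peaks were 192136011-192138572 in Bry and 192137214-192138042 in Hd2lox. The latter was 829 bp wide (percentile 52.2 of its list), against 2562 bp in Bry (percentile 96.3). Gm10516, a long non-coding RNA gene on the other strand, starts within the same region, so the peaks cannot be assigned to one of these genes. Apart from an Hdac2 peak of Hd2lox between 34.0 and 34.7 kb upstream (192172036-192172795), no other peak lay within 50 kb.

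**Figure D3:**
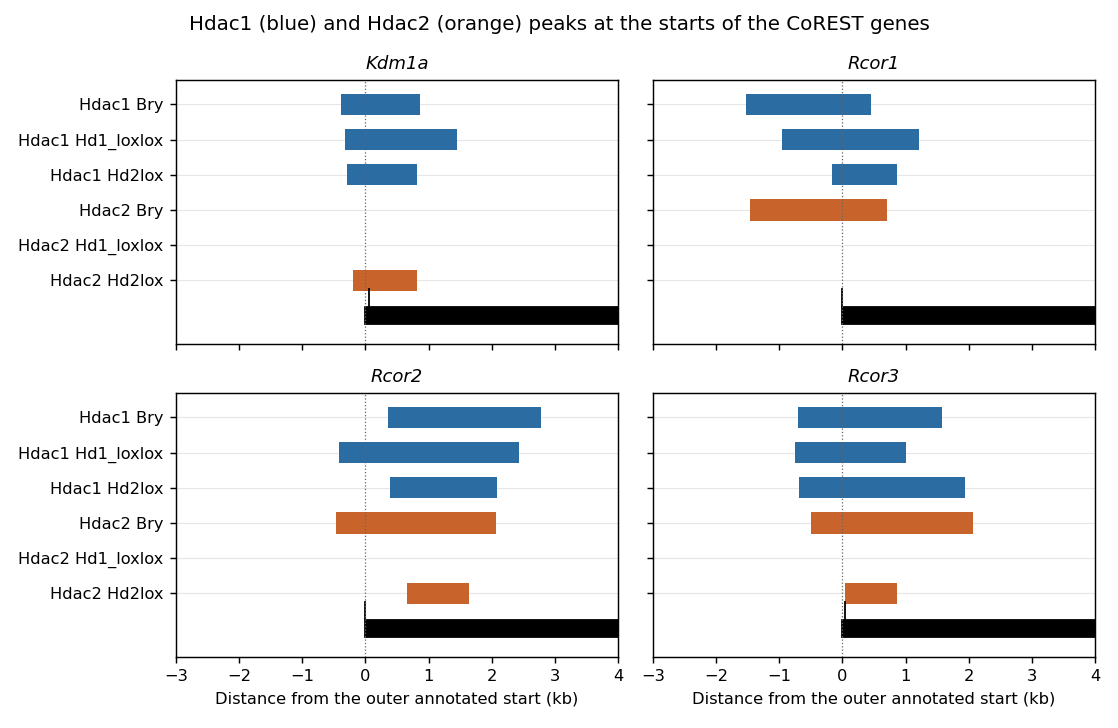
Peaks at the starts of Kdm1a, Rcor1, Rcor2 and Rcor3 by list, with distance from the outer annotated start in kb (positive in the direction of transcription). The black bar is the gene and the tick its annotated start. All 3 Hdac1 lists have a peak at each gene. The Bry Hdac2 list is missing at Kdm1a, the Hd2lox Hdac2 list at Rcor1, and the Hd1_loxlox Hdac2 list throughout.

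Over the 6 genes and 50 kb on either side, the lists held 55 peaks, of which 22 lay at outer starts, 7 inside genes and 26 in the flanks. The peaks inside genes include the Hd1_loxlox Hdac1 peak that covered the inner start of Gfi1. Merged where they overlapped by 1 bp or more, they made 20 sites. A site in all 3 Hdac1 lists occurred 6 times, at the starts of the 4 CoREST genes, inside Gfi1 and at the start of Tsc1. Only Hdac2 peaks made up 5 sites and only Hdac1 peaks 2. Of the 5 sites with Hdac2 peaks only, 4 were in a single list, and the fifth was the site downstream of Gfi1 in Hd1_loxlox and Hd2lox. Over whole lists, 6131 of 9279 Hdac2 peaks in Bry overlapped an Hdac1 peak of that line. The numbers were 320 of 5161 in Hd1_loxlox and 3281 of 9082 in Hd2lox. For Hdac1 peaks that overlapped Hdac2 they were 6113 of 7671, 319 of 7490 and 3252 of 7519. The share of sites with a single antibody was not counted over all genes.

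Where both antibodies had a peak at a site in the same line, the shared length ran from 31.7% to 100% of the Hdac1 peak and from 41.4% to 100% of the Hdac2 peak. There were 16 such cases, 11 in Bry and 5 in Hd2lox. In Hd2lox all 5 Hdac2 peaks lay wholly inside the Hdac1 peak, as did 92% of all Hdac2 peaks of that line that overlapped an Hdac1 peak. In Bry 1 of the 11 did, where 24.8% of all overlapping Hdac2 peaks did. The lists differ in width, and the median for Hdac1 was 1445 bp in Hd2lox, against 822 bp for Hdac2. In Bry the medians were 1375 and 1310 bp.

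The 5 start peaks of the Bry Hdac2 list were wide for that list. Their widths ran from 2025 to 3590 bp, percentiles 88.6 to 99.4, while all its peaks at annotated starts had a median of 1372.5 bp. The 5 Hdac1 start peaks of Bry ran from 1249 to 2423 bp (percentiles 36.6 to 93.7). Those of Hd1_loxlox ran from 1772 to 2857 bp (percentiles 71.7 to 96.2), and the 4 of Hd2lox from 1020 to 2618 bp (percentiles 11.2 to 95.9). The 3 Hdac2 start peaks of Hd2lox were between 829 and 1005 bp wide (percentiles 52.2 to 85.7). All peaks of that list at annotated starts had a median of 890 bp.

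The antibodies were then compared by the length of DNA covered by peaks in each gene and 50 kb on either side, counting the part of a peak inside that window and including peaks of neighbours. At Gfi1, in the order Bry, Hd1_loxlox and Hd2lox kept throughout, the Hdac1 lists covered 3884, 4487 and 1247 bp and the Hdac2 lists 5862, 1079 and 2609 bp. The groups overlapped fully, with means of 3206 ± 1723 bp and 3183 ± 2443 bp (SD, n = 3; exact two-sided permutation p = 1). The difference was 22.7 bp, and it turned to -1029.5 bp when Hdac2 of Hd1_loxlox was left out. At Gfi1b the values were 5713, 3504 and 2009 bp for Hdac1 and 6147, 0 and 0 bp for Hdac2, so Hdac2 was both highest in Bry and at 0 in the other lines (3742 ± 1863 against 2049 ± 3549 bp; exact permutation p = 0.6). At Kdm1a they were 1657, 1776 and 2320 bp against 316, 0 and 2913 bp, with the highest value of both antibodies in Hd2lox (1918 ± 353 against 1076 ± 1598 bp; exact permutation p = 0.4). With the widest 50% of each list the difference turned negative at Gfi1 and Kdm1a, to -658 and -379 bp, and leaving out both Hd1_loxlox lists gave -1670.0 bp at Gfi1.

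The scaffold genes showed less coverage on average for Hdac2, within the spread between lines. Rcor1 had 3575, 4210 and 1020 bp for Hdac1 and 3776, 0 and 0 bp for Hdac2 (2935 ± 1689 against 1259 ± 2180 bp; exact permutation p = 0.3). Rcor2 had 3715, 4156 and 1706 bp against 3881, 0 and 982 bp (3192 ± 1306 against 1621 ± 2018 bp; exact permutation p = 0.3). Rcor3 had 2277, 1772 and 2618 bp against 2562, 0 and 1589 bp (2222 ± 426 against 1384 ± 1293 bp; exact permutation p = 0.4). Without the Hdac2 list of Hd1_loxlox the differences of the means shrank at all 3 scaffold genes, from 1676 to 1047 bp at Rcor1, from 1571 to 761 bp at Rcor2 and from 839 to 147 bp at Rcor3. They also shrank at Gfi1b, from 1693 to 668.5 bp, and at Kdm1a, from 841 to 303 bp. With 3 lists against 3 the smallest possible p is 0.1, so this design cannot pass a threshold of 0.05, and every p adjusted over all protein-coding genes (Benjamini-Hochberg) was 1. In 0 of the 6 genes did every Hdac1 list cover more than every Hdac2 list, a pattern found in 5.41% of all protein-coding genes. Within Bry, Hdac2 covered more than Hdac1 at 5 of the genes, by 166 to 1978 bp, and less at Kdm1a. Hdac2 covered more in Bry at 36.4% of all protein-coding genes, including those with no coverage in either list, and the Bry Hdac2 list held more peaks, 9279 against 7671.

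**Figure D4:**
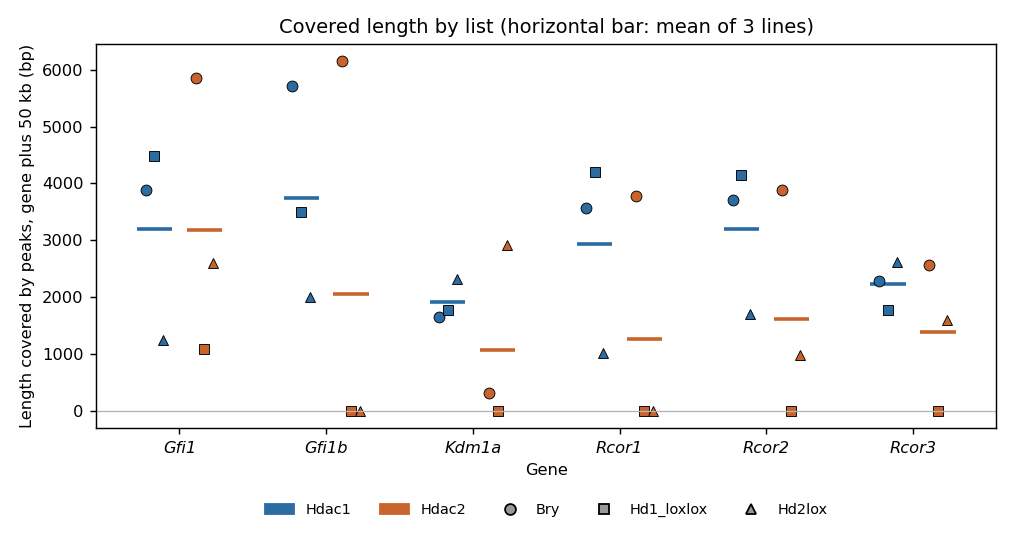
Length covered by peaks in each gene plus 50 kb on either side (bp, vertical axis) for each gene and list. Points are single lists, with a shape for each line, and horizontal bars are means of the 3 lines. The Hdac2 values of Hd1_loxlox are at 0 for all genes but Gfi1, and the Hdac1 and Hdac2 ranges overlap at every gene.

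Median coverage around these genes was above that of all protein-coding genes in every list but Hdac2 of Hd1_loxlox. The measure includes peaks of neighbours, with 26 of the 55 peaks in the flanks, and its window grows with gene length, which was not adjusted for. The median over the 6 genes for Hdac1 was 3645 bp (Bry), 3830 bp (Hd1_loxlox) and 1857 bp (Hd2lox), and the medians of all protein-coding genes were 1158, 1188 and 1038 bp. For Hdac2 it was 3828 bp in Bry against 1250 bp for all genes, 1285 bp in Hd2lox against 0 bp, and 0 bp in Hd1_loxlox, as for all genes.

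Over all protein-coding genes, starts with more CpG dinucleotides had a peak more often. Among the 6 genes, Gfi1b with the fewest was in 1 list and Rcor3 with the most in 5, but Rcor2 was also in 5, and Kdm1a and Rcor1, with more CpG than Rcor2, were in 4. Among all annotated starts with 20 to 56 CpG dinucleotides in the window before them, the group that holds Kdm1a, Rcor1 and Rcor3, 67.8% had an Hdac1 peak and 70.9% an Hdac2 peak within 1000 bp in Bry. With 11 to 19, the group of Rcor2 and the outer Gfi1 start, the shares were 47.6% and 51.6%. With 4 to 10, the group of Gfi1b and the inner Gfi1 start, they were 17.5% and 19.7%. The inner Gfi1 start had a peak within 1000 bp in 3 lists. Hd2lox had lower shares, from 62.1% for Hdac1 and 34.1% for Hdac2 in the group with most CpG to 11% and 5.55% in that of Gfi1b. Hd2lox had no peak at the outer Gfi1 start, and its Hdac1 list had one at 27% of starts in that group. The part of CpG content in the pattern of these 6 genes was not tested.

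**Figure D5:**
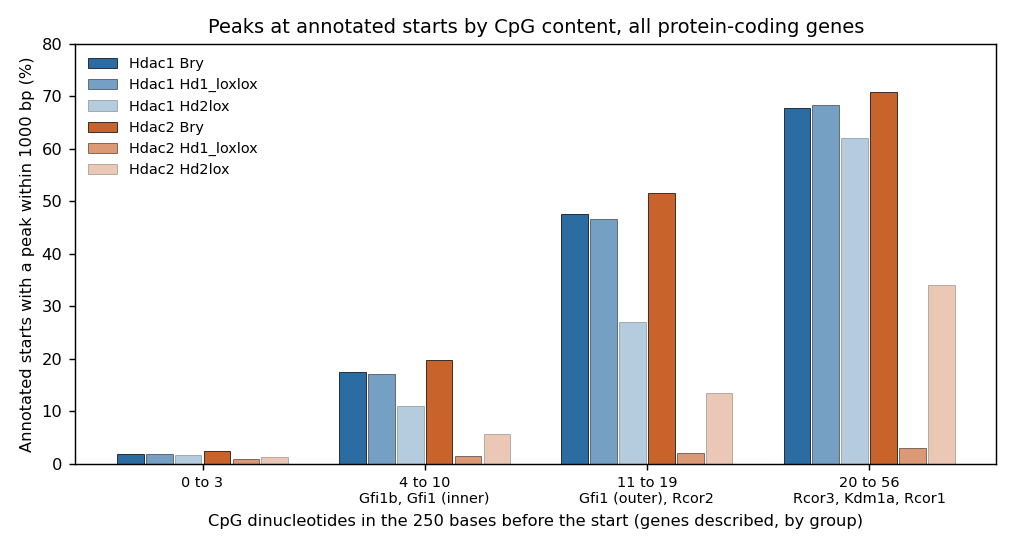
Share of annotated starts of protein-coding genes with a peak within 1000 bp (%, vertical axis) by the number of CpG dinucleotides in the 250 bases before the start, in 4 groups, for each list. The genes described are named under their group, with the inner and outer starts of Gfi1 shown separately. In Bry the Hdac1 share goes from 1.88% in the lowest group to 67.8% in the highest.

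Many genes shared the pattern of each of the 6 genes over the lists. The combination at Rcor2 and Rcor3 (all Hdac1 lists, and Hdac2 in Bry and Hd2lox) was shared by 1365 other protein-coding genes, or 6.24%, and that of Gfi1 by 1848, or 8.44%. Among genes with the same combination, those with the most similar covered length at their ends, by Euclidean distance over the 6 lists, were Cct5, Ncapd2 and Tbccd1 for Gfi1 (29.5 to 81.8 bp) and Mrps22, Rasd1 and Creb5 for Gfi1b (2 to 4 bp). They were Cdkn2a, Nubp2 and AU040320 for Rcor1 (107 to 201 bp) and Cadm1, Mllt11 and Zeb1 for Rcor2 (279 to 567 bp).

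Genes of proteins that work with Kdm1a and CoREST, listed together with the related demethylase gene Kdm1b, also carried Hdac1 at their ends. Of the 13 genes listed, 11 (84.6%) had an Hdac1 end peak in at least 2 lines, against 30.2% of all protein-coding genes. By the same rule 3 (23.1%) had Hdac2, against 10.6%. Rest, the repressor that recruits CoREST to neuronal genes, was in all 6 lists, and Ctbp2, a co-repressor, was in 5. Hdac2 itself, Phf21a, a histone reader of the complex, Zmym2, Ctbp1 and Kdm1b, a second demethylase, were in each Hdac1 list and also in the Bry Hdac2 list. The Hdac1 gene was in Hdac1 of Hd1_loxlox and Hdac2 of Bry, and Zmym3 was in no list. The CpG content of the starts was not compared for these genes or for the gene lists below.

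Of 9 other genes that encode zinc finger repressors with a SNAG domain, 5 had Hdac1 (55.6%) and 3 had Hdac2 (33.3%) by the same rule, against 30.2% and 10.6% of all protein-coding genes. Scrt1 was in all 6 lists, Insm2 in 5, and Scrt2 in all 3 Hdac1 lists and Hdac2 of Bry. Snai2, known for its part in mesenchymal transition, and Ovol1 were in none, as were 52.2% of all protein-coding genes.

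Of 23 genes reported as repressed by Gfi1 or Gfi1b in mouse or human blood cells, 11 had Hdac1 in at least 2 lines (47.8%) and 3 had Hdac2 (13%), against 30.2% and 10.6% of all protein-coding genes. E2f5, a cell cycle regulator, was in 5 lists. Egr1, an immediate early factor, Bax, a death effector, the cytokine signalling inhibitors Socs1 and Socs3, and Myb, a factor of blood progenitors, were in each Hdac1 list and also in the Bry Hdac2 list. Of the 23 genes, 10 had no end peak in any list, among them Hoxa9, Cdkn1a, Elane and Spi1. Over all protein-coding genes, 52.2% had none. Meis1, which was in 4 lists, was the only gene of the 23 in the Hd1_loxlox Hdac2 list, which had an end peak at 2.71% of protein-coding genes.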

How the data were processed

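The 6 ChIP libraries were deposited by the authors as lists of peak positions (chromosome, start and end) with no score, height or count. Per the submitters' processing notes, the tools were bcl2fastq, Bowtie2 2.2.9, SAMtools 1.3.1 and MACS2 2.1.1.20160309, with mm10 as the build. The settings of peak calling (threshold, mode, control) are not stated in the labels. Input libraries, 3 in number, were not used here. Each list belongs to 1 library, so peaks were called per sample. One file name gives the Hd2lox line as Hd2loxlox, and the sample title was followed.

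Genes, starts and sequences came from RefSeq tables of GRCm38.p6, with 21887 protein-coding genes, of which 17492 had an annotated start with strand, as did all 6 genes described. With no genome sequence, peaks outside these windows have no sequence here. Peaks were assigned in Python 3.11.15 with pandas 2.3.3 and NumPy 2.4.6, with a minimum overlap of 1 bp. The overlap and permutation code was tested on simulated data. The genes, the lists of other genes and the tests were chosen with earlier results of these data known. All 6 genes are named. The other names are, for each of them, the 3 most similar genes over 100 kb away (those of Kdm1a and Rcor3 are not reported here), neighbours with a peak, and genes of the lists in all lists or in all 3 lines of an antibody. Zmym3, Hdac1, Snai2, Ovol1, Hoxa9, Cdkn1a, Elane, Spi1 and Meis1 were named after their values were seen, as were the motifs and CpG measures chosen. The RUNX and GATA motifs were first searched in wider sets of 2 and 4 spellings, found in 17.7% and 23.6% of all windows, and were then shortened to the cores printed. Both searches gave the same result in all 7 windows of these genes.

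The Hdac1 and Hdac2 lists of a line are paired, since the labels give them the same cell line. Across 21887 genes their deviations from the antibody means in covered length correlated at 0.39 (Bry), -0.29 (Hd1_loxlox) and 0.6 (Hd2lox). Those of lists from different lines correlated at -0.61 to 0.47. Within an antibody the deviations cancel out at each gene, so the correlations constrain one another. They cannot decide whether lists of the same line go together. Nothing in the labels tells whether the lines came from separate experiments. The spread between lists, which sets the p-values, may thus be partly technical.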

Additional observations from a re-analysis of the deposited data

Results flagged for a closer look

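The difference between the antibodies in length covered within 50 kb had one sign in Bry and the opposite sign in both other lines at 4 of the 6 genes. Over all protein-coding genes, 19.8% had Hdac2 above Hdac1 in Bry and below it in both other lines, and 52% had Hdac2 below Hdac1 in Hd1_loxlox. Hdac2 minus Hdac1 was 434 bp in Bry at Gfi1b, against -3504 bp in Hd1_loxlox and -2009 bp in Hd2lox. It was 201 bp at Rcor1, against -4210 and -1020 bp. It was 166 bp at Rcor2, against -4156 and -724 bp. It was 285 bp at Rcor3, against -1772 and -1029 bp. Each line had 1 list per antibody, so the difference between lines was not tested. The Hd1_loxlox values rest on its Hdac2 list, which stands apart from the others over all genes.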

How the results depend on the processing

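The number of genes with an Hdac1 end peak in at least 2 lines stayed at 5 with windows of 500, 2000 and 5000 bp, was 4 with the widest 50% of each list, and ranged from 4 to 5 with each line left out. The Hdac2 number of 2 became 1 with windows of 500 bp and 3 with windows of 5000 bp. With each line left out in turn, both remaining lines being required, it ranged from 0 to 2, and it was 0 without Bry or Hd2lox, where the Hd1_loxlox list with its 0 end peaks was required. Counting peaks anywhere in the gene or within 1000 bp, an alternative chosen after seeing the data, gave 5 for Hdac1 and 3 for Hdac2. By that rule the shares of all protein-coding genes were also higher, 34% for Hdac1 and 18.7% for Hdac2. The shares of all genes with the other window sizes are not given here.

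For covered length the direction of the mean, Hdac1 above Hdac2, held at Gfi1b, Rcor1 and Rcor2 under all 10 alternatives tried. It held at Rcor3 under all but the number of peaks, where the difference was 0, as it was at Gfi1. The 10 include the line as a replicate block, which keeps the same means, so its direction could not change. At Gfi1 the difference of 22.7 bp became -48.0 bp per Mb when scaled to the length the list covered, -658 bp with the widest 50% of each list, and -1029.5 bp without the Hd1_loxlox Hdac2 list. Leaving out each line in turn gave -1670.0 to 1023 bp there, negative without Hd1_loxlox. At Kdm1a 841 bp became -379 bp with the widest 50% of each list. The cause was not tested. Exact permutation p ran from 0.1 to 1 over all alternatives and genes. With the line as a replicate block (sign-flip permutation, smallest p 0.25), p was 1 at Gfi1 and 0.5 at the other genes, with the same differences of means. The lists carry no depth, which limits what an absent peak can show.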
